A study of Mus musculus with 26 samples.

Results

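Transcripts of 10 genes of the Wnt pathway were followed through skeletal muscle regeneration and through C2C12 differentiation with and without Mettl3 knockdown. The genes are the ligands Wnt4, Wnt5a, Wnt9a, Wnt10a and Wnt11, the R-spondin Rspo3, the secreted Frizzled-related proteins Sfrp1 and Sfrp2, and the intracellular Axin2 and Lef1. They were picked by symbol, with earlier results of these data known. All 10 were present among the 53465 genes of the muscle table and the 55487 genes of the C2C12 table. A gene was tested where it reached 0.5 FPKM (fragments scaled to the length of the gene and a size factor of the library) in at least 2 libraries of a table. That left 8 of the 10 in muscle, without Wnt10a and Lef1, and 8 of the 10 in C2C12 cells, without Wnt5a and Wnt11. In C2C12 cells Rspo3 reached that level only in Cas9M3 DM3 libraries, so it was bound to differ there, and it is described without a test and left out of the counts.

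Wnt proteins are secreted lipid-modified ligands that bind Frizzled receptors. In the canonical branch, receptor binding stops the Axin complex from destroying beta-catenin, which then enters the nucleus and acts with TCF/LEF factors on target genes such as Axin2. Other branches act through planar polarity proteins and calcium. R-spondins raise the number of Frizzled receptors on the cell surface, while secreted Frizzled-related proteins bind Wnt ligands outside the cell. In muscle, Wnt signals are known to act on satellite cells, the stem cells of the fibre, and on myoblast differentiation and fusion.

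Muscle was the tibialis anterior of 6-week-old male C57BL/6J mice injected with cardiotoxin (CTX), a snake venom toxin that destroys fibres, with 2 libraries on each of days 0, 1, 3, 5 and 10. Whether day 0 muscle was untouched or received saline is not settled by the sources used here. C2C12 is a mouse myoblast line. Control cells (Ctrl) and cells carrying dCas9-KRAB with guides to the Mettl3 promoter (Cas9M3), selected as a stable line with puromycin, were each sequenced in growth medium (GM) and on day 3 of serum withdrawal (DM3), with 2 libraries per group. The methods speak in general of independent biological samples, in a larger number per experiment than the libraries per group here, and do not say whether same-group RNA-seq libraries came from separate animals or cultures. Therefore p-values measure the spread between these libraries, which may be technical. The 8 overexpression libraries of the series were not analysed here.

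Mettl3 was 4.68 to 5.65 FPKM in the 4 Ctrl libraries and 0.0805 to 0.331 in the 4 Cas9M3 libraries. Low FPKM values step in whole reads, which puts depth at 14170000 to 18820000 reads on genes per muscle library and 14230000 to 29570000 per C2C12 library. In muscle the size factors do not follow these totals. When the libraries were scaled to the total reads on genes instead, an alternative chosen after seeing the data, the median log2 fold change of all genes tested went from 0.01 to 0.79 between days 0 and 3 and from -0.01 to -0.68 between days 3 and 10. Quantile normalization put the first median at -0.12. The share of called genes that were higher went from 50.2% to 85.7% in the first comparison and from 50.5% to 13.3% in the second. It went from 58.8% to 87.7% between days 0 and 1 and from 46.7% to 86.5% between days 1 and 3, and it came to 14.2% between days 3 and 5, where most called genes were higher as deposited. In C2C12 cells the same scaling moved the median to 0.23 for differentiation in Ctrl cells (67.1% to 80.2% of called genes higher) and to 0.22 for the knockdown in GM. Some libraries stood apart. Although the mice are described as male, Xist, a noncoding RNA made from the inactive X chromosome of female cells, was 5.77 to 10.0 FPKM in both day 0 libraries, both day 10 libraries and day 3 replicate 2, and at most 0.152 in the other 5. Apart from day 3, Xist level and day cannot be told apart. In GM, replicates of the same cells also differed. The summed FPKM of 4 differentiating myocyte markers (Myog, Mymk, Mymx, Myh3) was 20.1 in Ctrl GM replicate 1 against 5.12 in replicate 2, and 26.0 in Cas9M3 GM replicate 1 against 0.919 in replicate 2. Gm23935, a noncoding RNA gene, held 37.9% of all FPKM in Ctrl GM replicate 2. In replicate 2 of Cas9M3 GM and DM3 it held 11.7% and 15.7%, and in every muscle library it led with 21.5 to 30.2%. It was not the leading gene in replicate 1 of any C2C12 group.

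Promoter windows of 300 bases from RefSeq (GRCm38.p6; 250 bases before to 50 after a transcript start) were found for 6 of the 10 genes. The 4 windows printed here belong to the gene with the largest rise in muscle (Sfrp2), to 2 genes that were highest together in Ctrl DM3 cells (Axin2, Wnt9a) and to the gene whose window holds a TCF/LEF match (Wnt11). All are given 5′ to 3′ on the plus strand. Capitals mark the TCF/LEF words CTTTGAT or CTTTGAA and the E-box word CAGCTG, the last bound by MyoD family factors, each searched on both strands.
Sfrp2, chr3:83766071-83766370: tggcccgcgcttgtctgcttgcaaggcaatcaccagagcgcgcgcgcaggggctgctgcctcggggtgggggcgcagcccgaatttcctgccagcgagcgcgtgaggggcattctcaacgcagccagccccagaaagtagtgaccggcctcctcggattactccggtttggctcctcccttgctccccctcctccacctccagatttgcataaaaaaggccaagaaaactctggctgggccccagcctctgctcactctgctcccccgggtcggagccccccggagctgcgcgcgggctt
Axin2, chr11:108920099-108920398: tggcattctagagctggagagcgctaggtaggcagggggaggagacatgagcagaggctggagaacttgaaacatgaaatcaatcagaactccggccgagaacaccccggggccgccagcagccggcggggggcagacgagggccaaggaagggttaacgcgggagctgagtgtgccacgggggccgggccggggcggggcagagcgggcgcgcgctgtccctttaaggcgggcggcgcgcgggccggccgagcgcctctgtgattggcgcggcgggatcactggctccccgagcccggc
Wnt9a, chr11:59306680-59306979: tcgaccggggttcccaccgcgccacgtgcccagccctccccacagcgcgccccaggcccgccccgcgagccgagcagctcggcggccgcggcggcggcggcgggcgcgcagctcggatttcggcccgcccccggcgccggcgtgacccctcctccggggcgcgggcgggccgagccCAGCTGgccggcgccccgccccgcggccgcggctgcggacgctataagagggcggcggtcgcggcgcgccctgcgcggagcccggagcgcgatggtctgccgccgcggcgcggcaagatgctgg
Wnt11, chr7:98834862-98835161: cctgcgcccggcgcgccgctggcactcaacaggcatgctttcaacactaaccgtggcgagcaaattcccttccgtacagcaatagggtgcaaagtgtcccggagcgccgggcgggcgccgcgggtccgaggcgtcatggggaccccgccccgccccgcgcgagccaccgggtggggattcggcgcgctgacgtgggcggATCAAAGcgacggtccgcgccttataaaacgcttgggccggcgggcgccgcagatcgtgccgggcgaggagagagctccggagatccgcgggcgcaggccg
The 6 genes have 10 windows in all, of which 1 held a TCF/LEF word (the printed one of 2 for Wnt11) and 2 held the E-box (that of Wnt9a and 1 of 4 for Lef1). The windows of Sfrp2, Axin2 and Wnt4 held neither word. Among all 32851 promoter windows of the same length, 8.65% held a TCF/LEF word and 16.3% held the E-box. A match of letters is not shown to be a bound site. No window was at hand for Wnt5a, Wnt10a, Rspo3 and Sfrp1. The genes lie on chromosomes 1 (Wnt10a), 3 (Sfrp2, Lef1), 4 (Wnt4), 7 (Wnt11), 8 (Sfrp1), 10 (Rspo3), 11 (Wnt9a, Axin2) and 14 (Wnt5a). In GENCODE M21, 6 of them share exonic bases with a gene on the other strand. Since the strand setting of the read counting is not given in the sources used here, reads of such pairs cannot be told apart.

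**Figure D1:**
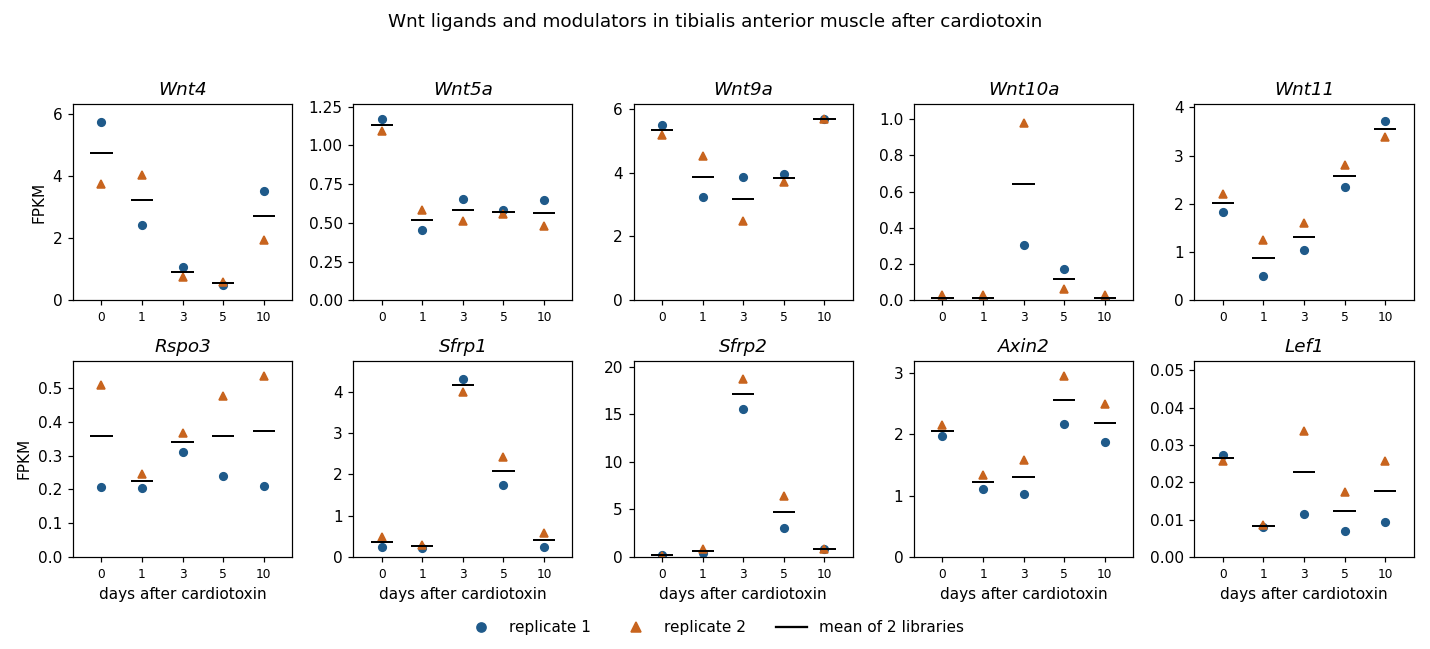
FPKM (vertical axes, linear, each with its own scale) of the 10 genes in tibialis anterior against days after cardiotoxin. Circles are replicate 1, triangles replicate 2 and lines the mean of 2 libraries. Sfrp2 reaches 15.6 and 18.7 FPKM on day 3, whereas Wnt4 is 0.498 to 1.08 on days 3 and 5 and 1.92 or more on the other days.

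In muscle, both secreted inhibitors had their highest values on day 3. The ligands Wnt4, Wnt5a and Wnt9a were called lower on day 3 than on day 0, but with scaling to total reads only Wnt4 was. Sfrp2 was 0.186 and 0.139 FPKM on day 0, 0.389 and 0.813 on day 1, 15.6 and 18.7 on day 3, 3.02 and 6.41 on day 5, then 0.797 and 0.840 on day 10. Both day 3 libraries stood above all other libraries, and both day 5 libraries stood above those of days 0, 1 and 10. The day 3 values rest on 661 and 815 reads and the day 0 values on 5 and 4. Sfrp2 rose from 0.163 ± 0.0334 on day 0 to 17.1 ± 2.23 FPKM on day 3 (SD, n = 2), which is 105-fold in FPKM and 6.03 ± 0.40 (SE) on the log2(FPKM + 0.1) scale (adjusted p = 0.000263). All log2 fold changes below are on this scale, which understates changes of low genes. Sfrp2 also rose between days 1 and 3 (log2 fold change 4.68 ± 0.40, adjusted p = 0.00182). It fell between days 3 and 10 (log2 fold change -4.22 ± 0.40, adjusted p = 0.000614).

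Sfrp1, the related inhibitor, also had its highest values on day 3, at a lower level than Sfrp2. It was 0.239 and 0.480 FPKM on day 0, 0.224 and 0.296 on day 1, 4.32 and 3.99 on day 3, 1.75 and 2.41 on day 5, then 0.243 and 0.586 on day 10. The groups of days 3 and 5 overlapped with no other day, and those of days 0, 1 and 10 overlapped with one another. Sfrp1 rose 11.6-fold in FPKM from day 0 to day 3 (log2 fold change 3.26 ± 0.40, adjusted p = 0.000706) and 16.0-fold from day 1 (log2 fold change 3.57 ± 0.40, adjusted p = 0.00242). It fell from day 3 to day 10 (log2 fold change -3.13 ± 0.40, adjusted p = 0.00129). For both genes, the comparisons of day 3 with days 0, 1 and 10 stayed called with each library left out, with adjusted p up to 0.0278. The day 3 library without Xist (replicate 1) and the one with Xist (replicate 2) were both high. With a term for Xist, the rise from day 0 was 6.17 for Sfrp2 and 3.21 for Sfrp1. Xist differed clearly within a day on day 3 only. The term therefore rests day 3 on replicate 2 against days 0 and 10, and on replicate 1 against days 1 and 5. Here and below it repeats, in effect, a fit without the other day 3 library and is no separate check.

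Between days 3 and 5, Sfrp2 fell further below its peak (log2 fold change -1.93 ± 0.40, adjusted p = 0.0224). That call was lost without any 1 of the 4 libraries of those days, with adjusted p = 0.0824 and 0.147 without day 3 replicates 1 and 2, and 0.116 and 0.0532 without day 5 replicates 1 and 2. The term for Xist, which in effect repeats the fit without day 3 replicate 2, lost it as well. Sfrp1 differed by -0.98 ± 0.40 on the log2 scale (adjusted p = 0.151), and it was called with a pseudocount of 1 (adjusted p = 0.0241), with scaling to total reads (0.0496) or with only these days in the fit (0.0304).

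Gene markers of several cell types moved over the same days. Between day 0 and day 3, the summed FPKM of 6 macrophage markers went from 19.0 and 35.8 to 546 and 517, and that of 4 pericyte and smooth muscle markers from 89.8 and 95.8 to 347 and 424. The last sum was carried by Acta2, a smooth muscle actin (mean 25.6 to 333 FPKM), and to a lesser degree by Pdgfrb (5.50 to 13.5), while the more restricted markers Rgs5 (57.2 to 36.8) and Myh11 (4.58 to 1.65) were lower. The sum of the 4 myocyte markers was 12.5 and 24.4 on day 0 and 871 and 1289 on day 3. For 7 markers of fibro-adipogenic progenitors, the mesenchymal cells between fibres, the sums were 61.0 and 87.2 on day 0, 105 and 148 on day 3, then 207 and 211 on day 5, so that this list was highest on day 5 and not on day 3. The sum of 5 mature fibre genes was 33230 and 33990 on day 0 against 9727 and 9023 on day 3. Endothelial sums were 53.4 and 73.1 on day 0 and 39.5 and 30.8 on day 3. Every marker of these 6 lists was above 0 in each library of these days. In whole muscle, fewer cells of a type and less RNA per cell cannot be told apart, and the part of cell makeup in the levels was not tested.

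Wnt4, a ligand of the canonical and other branches, was low on days 3 and 5. It was 5.74 and 3.75 FPKM on day 0, 2.43 and 4.03 on day 1, 1.08 and 0.743 on day 3, 0.498 and 0.605 on day 5, then 3.50 and 1.92 on day 10. The libraries of days 3 and 5 lay below all others. Wnt4 fell from 4.75 ± 1.41 to 0.909 ± 0.235 FPKM between days 0 and 3 (SD, n = 2; log2 fold change -2.25 ± 0.37, adjusted p = 0.00232). This call held with each library left out, with adjusted p up to 0.0199, and with scaling to total reads (log2 fold change -1.47, adjusted p = 0.00594). It also fell between days 1 and 3 (log2 fold change -1.70 ± 0.37, adjusted p = 0.0139), a call lost without day 1 replicate 2 (adjusted p = 0.0616), without day 3 replicate 2 (adjusted p = 0.0938) and with a term for Xist (adjusted p = 0.0983). Wnt4 rose again between days 3 and 10 (log2 fold change 1.44 ± 0.37, adjusted p = 0.0194), a call lost without day 3 replicate 2 (adjusted p = 0.114) or day 10 replicate 1 (adjusted p = 0.120) and with scaling to total reads (log2 fold change 0.78, adjusted p = 0.0761).

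Wnt9a, a canonical ligand, had the highest mean FPKM of the 5 ligands on each of the 5 days. Its values were 5.47 and 5.17 FPKM on day 0, 3.23 and 4.50 on day 1, 3.85 and 2.49 on day 3, 3.95 and 3.70 on day 5, then 5.67 and 5.68 on day 10. The libraries of days 0 and 10 lay above those of the other days, and days 1, 3 and 5 overlapped. Wnt9a fell between days 0 and 3 (log2 fold change -0.76 ± 0.23, adjusted p = 0.0271) and rose between days 3 and 10 (log2 fold change 0.85 ± 0.23, adjusted p = 0.0225). The fall was not called without day 0 replicate 1 (adjusted p = 0.110), day 0 replicate 2 (adjusted p = 0.0711) or day 3 replicate 2 (adjusted p = 0.164). The rise was not called without day 3 replicate 2 (adjusted p = 0.133), day 10 replicate 1 (adjusted p = 0.0906) or day 10 replicate 2 (adjusted p = 0.0661). With only the days compared in the fit, adjusted p was 0.0557 for the fall and 0.0540 for the rise. With scaling to total reads, neither was called and the day 3 libraries (5.30 and 3.53 reads per kilobase per 1000000 reads on genes) enclosed those of day 0 (4.06 and 4.28). The log2 fold change was then 0.05 ± 0.22 between days 0 and 3 (adjusted p = 0.856), so its direction depends on the scaling. Between days 3 and 10 it was 0.15 ± 0.22 (adjusted p = 0.588). Relative to the median of all genes in that scaling (0.79 and -0.68), Wnt9a was at -0.73 and 0.84.

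Wnt5a, best known for signalling outside beta-catenin, was 1.17 and 1.09 FPKM on day 0 and lay between 0.455 and 0.654 in the 8 later libraries. Days 1, 3, 5 and 10 thus did not overlap with day 0. The fall was called between days 0 and 3 (log2 fold change -0.86 ± 0.25, adjusted p = 0.0259), where it rests on 114 and 114 reads against 101 and 81. It was not called without day 0 replicate 1 (adjusted p = 0.115), day 0 replicate 2 (0.0732), day 3 replicate 1 (0.0580) or day 3 replicate 2 (0.149), and adjusted p was 0.0524 with no filter on low values. With scaling to total reads, the libraries of days 0 (0.868 and 0.902 reads per kilobase per 1000000 reads on genes) and 3 (0.901 and 0.725) overlapped. The log2 fold change was then -0.12 ± 0.24 (adjusted p = 0.691), or -0.90 relative to the median of all genes (0.79). In that scaling Wnt5a was called lower on day 10 than on day 3 (log2 fold change -0.66, adjusted p = 0.0473), where the value as deposited was -0.04 (adjusted p = 0.915). The differences of day 1 (adjusted p = 0.0604) and day 10 (log2 fold change -0.90 ± 0.25, adjusted p = 0.404) from day 0 were not called.

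Wnt11, which acts in muscle mainly outside beta-catenin, was highest on day 10. It was 1.82 and 2.21 FPKM on day 0, 0.506 and 1.25 on day 1, 1.04 and 1.60 on day 3, 2.36 and 2.81 on day 5, then 3.71 and 3.39 on day 10. The day 10 libraries lay above all others, days 1 and 3 overlapped, and both day 3 libraries lay below both day 0 libraries (log2 fold change -0.60 ± 0.37, adjusted p = 0.218). Wnt11 rose between days 3 and 10 (log2 fold change 1.39 ± 0.37, adjusted p = 0.0218). That call was lost without day 3 replicate 1 (adjusted p = 0.121), day 10 replicate 1 (adjusted p = 0.101) or day 10 replicate 2 (adjusted p = 0.0564), with a term for Xist (adjusted p = 0.127), and with scaling to total reads (log2 fold change 0.71, adjusted p = 0.146). In the latter, day 3 was called higher than day 1 (log2 fold change 1.15, adjusted p = 0.0446). Without day 1 replicate 2, the higher of its day, the differences of day 1 from day 0 (log2 fold change -1.80, adjusted p = 0.0197) and of day 3 from day 1 (1.20, adjusted p = 0.0281) were called, while with all libraries they were not (-1.22 ± 0.37, adjusted p = 0.0895, and 0.62 ± 0.37, adjusted p = 0.237). Without day 1 replicate 1 or replicate 2, the difference of day 5 from day 3 was also called (log2 fold change 0.94, adjusted p = 0.0411 and 0.0419, against 0.140 with all libraries).

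Wnt10a, a canonical ligand, was near the limit of detection in muscle and was not tested there. It was 0 in replicate 1 and 0.0303, 0.0308 and 0.0306 FPKM, that is 1 read each, in replicate 2 of days 0, 1 and 10. On day 3 it was 0.308 and 0.981 FPKM (15 and 49 reads), and on day 5 it was 0.174 and 0.0616 (7 and 3 reads). The day 3 libraries thus held the highest values, with a spread of their own. Lef1, a nuclear partner of beta-catenin, had 1 to 6 reads per muscle library (0.00698 to 0.0337 FPKM) and gives no order of days.

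Axin2, the scaffold of the destruction complex and a common readout of canonical signalling, was 1.97 and 2.15 FPKM on day 0, 1.10 and 1.34 on day 1, 1.02 and 1.58 on day 3, 2.17 and 2.95 on day 5, then 1.87 and 2.49 on day 10. All libraries of days 1 and 3 lay below all libraries of days 0, 5 and 10, and replicate 2 was the higher one on each of the 5 days. Axin2 was not called in any of the 6 comparisons of days. The closest were day 5 against day 3 (log2 fold change 0.94 ± 0.26, adjusted p = 0.0552), day 10 against day 3 (0.72 ± 0.26, adjusted p = 0.0638) and day 3 against day 0 (-0.65 ± 0.26, adjusted p = 0.0728). Without day 3 replicate 2, the last of these was called (log2 fold change -0.94, adjusted p = 0.0463), and with quantile normalization all 3 were (adjusted p = 0.0275, 0.0204 and 0.0176). With scaling to total reads, the difference of day 3 from day 0 changed direction (log2 fold change 0.13, adjusted p = 0.727). Relative to the median of all genes in that scaling (0.79), it was -0.65. Rspo3, the ligand that raises Frizzled levels, lay between 0.203 and 0.537 FPKM in all 10 muscle libraries (8 to 29 reads), with replicate 2 the higher one on each day. It was not called in any comparison of days.

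**Figure D2:**
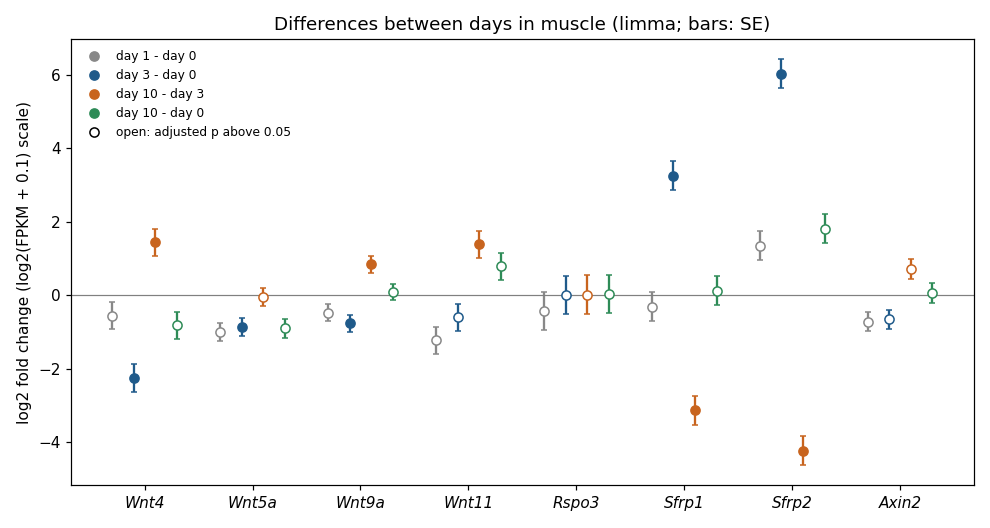
Log2 fold changes on the log2(FPKM + 0.1) scale (vertical axis) of the 8 genes tested in muscle, with SE bars, for 4 comparisons of days. Filled points have an adjusted p of at most 0.05. Sfrp2 and Sfrp1 show the largest differences, 6.03 and 3.26 up on day 3 and -4.22 and -3.13 from day 3 to day 10, and no gene is called between days 10 and 0.

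Read against all genes, the counts were as follows, for genes chosen with earlier results of these data known. Between days 0 and 3, 5 of the 8 genes tested were called, where 48.8% of all 16753 genes tested were called. At the study's threshold for differentially expressed genes (DEGs), which also asks for a log2 fold change of 2, 3 of 8 passed (Sfrp2, Sfrp1, Wnt4) against 13.3% of all genes. Between days 1 and 3, 3 of 8 were called against 31.1% (2 DEGs against 6.02%), and between days 3 and 10, 5 of 8 against 37.9% (2 DEGs against 8.28%). Between days 3 and 5, 1 of 8 was called against 12.7%, and 0 were DEGs against 1.67%. Between days 0 and 1, 0 of 8 were called by limma against 6.00% of all genes (0 DEGs against 1.48%). An unadjusted p under 0.05 was found for 4 of the 8 and for 4493 of all 16753 genes. Between days 0 and 10, 0 of 8 were called against 0.00597% by either rule. An unadjusted p under 0.05 was found for 2 of the 8, Wnt5a and Sfrp2, and for 1697 of all 16753 genes. Sfrp2 on day 10 lay above both day 0 libraries (log2 fold change 1.81 ± 0.40, adjusted p = 0.339). Between days 0 and 3, the 8 genes had a median of -0.62 on the log2 scale, beside 0.01 over all genes. With scaling to total reads, 3 of 8 were called between days 0 and 3 (Sfrp2, Sfrp1, Wnt4) beside 61.1% of all genes.

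Genes of the pathway were counted from 9 lists, which also hold the genes described above. Calls of those genes are thus counted again here. Over all lists, 30 of 61 genes tested (49.2%) were called between days 0 and 3, a share near the 48.8% of all genes. Between days 3 and 10, 26 of 61 (42.6%) were called beside 37.9%. Both counts include Celsr3, which reached the tested level on day 3 only. The counts of each list between days 0 and 3 are to be read against that background, and the directions of called genes against the scaling, since with total reads 36 of 61 were higher and 7 lower. Of 19 ligands, 6 were tested in muscle. Between days 0 and 3, 0 rose and 3 fell, all of them described above, and between days 3 and 10, 4 rose, the other being Wnt5b (0.573 and 0.503 FPKM to 1.72 and 2.30, log2 fold change 1.72 ± 0.29, adjusted p = 0.00379). Both secretion genes rose by day 3. Porcn, the enzyme that adds the lipid to Wnt proteins, went from 3.16 and 2.77 to 7.85 and 10.5 FPKM (log2 fold change 1.59 ± 0.25, adjusted p = 0.00182), and Wls, their carrier to the surface, from 2.08 and 3.25 to 4.84 and 5.51 (0.96 ± 0.27, adjusted p = 0.0213). Of 8 secreted inhibitors tested, Sfrp1 and Sfrp2 rose and Frzb fell by day 3. Frzb, another member of the Frizzled-related family, was 3.72 and 7.45 FPKM on day 0, 1.33 and 0.504 on day 3, then 6.53 and 8.20 on day 10 (day 3 against day 0, log2 fold change -2.53 ± 0.56, adjusted p = 0.00787).

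Among 14 receptors and co-receptors tested, 5 rose and 3 fell by day 3, with a median of -0.17. Fzd2 went from 0.833 and 1.82 to 4.47 and 6.22 FPKM (log2 fold change 2.01 ± 0.38, adjusted p = 0.00414), and Fzd9 was lower (-1.85 ± 0.36, adjusted p = 0.00459). Of 3 R-spondin genes and receptors tested, the receptor Lgr4 fell from 4.72 and 5.21 to 1.54 and 1.09 FPKM (log2 fold change -1.85 ± 0.32, adjusted p = 0.00273). Of 10 genes of the cytoplasmic core, 4 fell and 0 rose, whereas with scaling to total reads 5 were called higher and 1 lower. The one lower in both was the Dishevelled gene Dvl2 (53.5 and 48.3 to 14.3 and 13.3 FPKM, log2 fold change -1.88 ± 0.12, adjusted p = 0.000263). Of 7 nuclear factors, 5 rose and 1 fell. Tcf7, which stands in both the nuclear list and the target list, went from 0.306 and 0.428 to 2.53 and 3.75 FPKM (log2 fold change 2.78 ± 0.35, adjusted p = 0.000770). It was the only 1 of 7 common targets called, and it is also known as a T cell gene. Summed T cell markers were 0.123 and 0.390 FPKM on day 0 and 1.44 and 0.927 on day 3, and their part in the Tcf7 level was not tested. Of 7 planar polarity genes, Daam2 rose (log2 fold change 2.43 ± 0.40, adjusted p = 0.00228) and Celsr2 fell (-1.93). Celsr3, which was called, reached the tested level on day 3 only and gives no test. Between days 0 and 10, 0 genes of these lists were called by limma (5 of 61 tested at an unadjusted p under 0.05, beside 1697 of all 16753 genes).

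Over the 10 muscle libraries, the gene whose log2(FPKM + 0.1) course was most like that of Sfrp2 was Gm26771 (Pearson r = 0.992), the gene on its other strand. Gm26771 was at most 0.0742 FPKM on day 0 and 5.38 and 5.39 on day 3, and it shares 347 exonic bases with Sfrp2. For Sfrp1 the most alike were P3h4 (r = 0.992), a partner of collagen-modifying enzymes, and the chemokine gene Cxcl16 (r = 0.986). Wnt4 was most like Dram2 (r = 0.986) and Prodh (r = 0.972), Wnt11 like Tmem25 (r = 0.972) and Mettl15 (r = 0.963), and Wnt9a like Gm16576 (r = 0.960) and Gm26995 (r = 0.957). Axin2 was most like Gnb5 (r = 0.939) and Sirt5 (r = 0.933), Wnt5a like Socs2 (r = 0.928) and Dglucy (r = 0.914), and Rspo3 like Plxnd1 (r = 0.896) and Kctd12b (r = 0.864). These are the highest of 13950 or 13951 genes compared with each, and the values share libraries and depth.

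**Figure D3:**
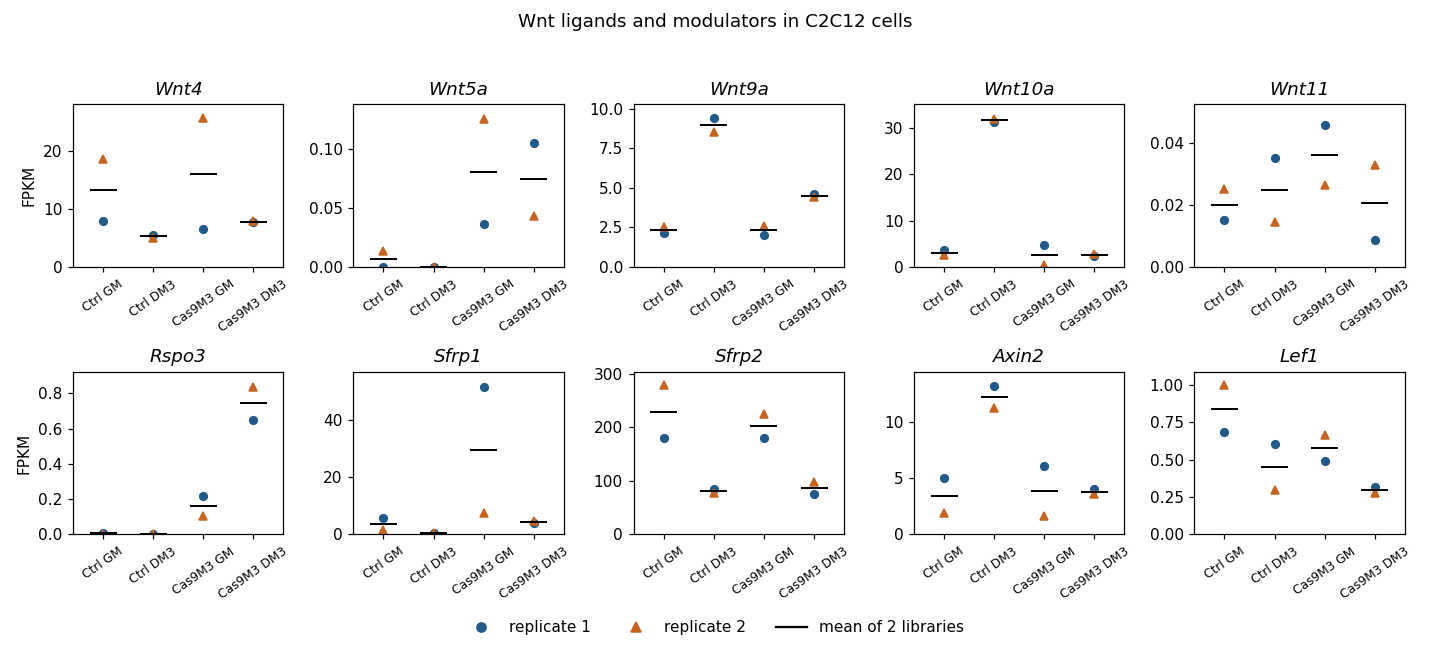
FPKM (vertical axes, linear, each with its own scale) of the 10 genes in the 4 groups of C2C12 libraries. Circles are replicate 1, triangles replicate 2 and lines the mean of 2 libraries. Wnt10a is 31.4 and 31.9 FPKM in Ctrl DM3 and at most 4.75 elsewhere, and the GM replicates of Wnt4, Sfrp1 and Axin2 lie far apart.

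In C2C12 cells, Wnt10a, Wnt9a and Axin2 were highest in Ctrl DM3 cells, whereas Sfrp1 and Rspo3 were higher in Cas9M3 than in Ctrl libraries of the same medium. Wnt10a was 3.68 and 2.52 FPKM in Ctrl GM, 31.4 and 31.9 in Ctrl DM3, 4.75 and 0.485 in Cas9M3 GM, and 2.34 and 2.76 in Cas9M3 DM3. Only the Ctrl DM3 libraries stood apart, and the other 3 groups overlapped. The mean was 10.2-fold higher in Ctrl DM3 than in Ctrl GM (log2 fold change 3.33 ± 0.89, adjusted p = 0.144) and 12.4-fold lower in Cas9M3 DM3 than in Ctrl DM3 (-3.59 ± 0.89, adjusted p = 0.105). Neither was called. The fit shares 1 spread over the 4 groups, which includes the gap between the Cas9M3 GM libraries. Without Cas9M3 GM replicate 1 or replicate 2, both were called (adjusted p = 0.0215 and 0.0197 for the first, 0.0145 and 0.0145 for the second). With only the DM3 groups in the fit, the knockdown difference had an adjusted p of 0.000594.

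Wnt9a was 2.14 and 2.55 FPKM in Ctrl GM, 9.41 and 8.54 in Ctrl DM3, 2.04 and 2.62 in Cas9M3 GM, and 4.59 and 4.40 in Cas9M3 DM3. The GM groups overlapped, and on DM3 the Ctrl libraries lay above the Cas9M3 libraries. Wnt9a rose with differentiation in Ctrl cells, 3.82-fold in FPKM (log2 fold change 1.89 ± 0.21, adjusted p = 0.0250). That call was lost without any single DM3 library, Ctrl or Cas9M3, while the log2 fold change was 1.77 to 2.01 over the libraries left out. It was also lost with only the Ctrl groups in the fit (adjusted p = 0.187), where 0% of all genes were called. In Cas9M3 cells the difference was 0.93 ± 0.21 (adjusted p = 0.139), and between Cas9M3 and Ctrl on DM3 it was -0.98 ± 0.21 (adjusted p = 0.0778). The latter was called without Ctrl GM replicate 1 (adjusted p = 0.0396) or replicate 2 (0.0396) and with only the DM3 groups in the fit (0.00803).

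Axin2 was 5.04 and 1.86 FPKM in Ctrl GM, 13.2 and 11.3 in Ctrl DM3, 6.03 and 1.60 in Cas9M3 GM, and 4.01 and 3.57 in Cas9M3 DM3. The Ctrl DM3 libraries lay above all others, and the other 3 groups overlapped. The log2 fold change was 1.95 ± 0.67 from GM to DM3 in Ctrl cells (adjusted p = 0.217) and -1.66 ± 0.67 for Cas9M3 against Ctrl on DM3 (adjusted p = 0.275). With a library left out, the differentiation difference was 1.26 to 2.65, the highest without Ctrl GM replicate 1. With only the DM3 groups in the fit, the knockdown difference had an adjusted p of 0.00330, where 21.6% of all genes were called. The 4 GM libraries split by replicate number and not by cell line for this gene, with replicate 1 at 5.04 and 6.03 and replicate 2 at 1.86 and 1.60.

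Like these 3 genes, the myocyte markers were highest in Ctrl DM3 libraries. Their sum was 335 and 296 FPKM in Ctrl DM3, 8.92 and 6.19 in Cas9M3 DM3, and 26.0 or less in all GM libraries. In Cas9M3 cells the sums of GM (26.0 and 0.919) enclosed those of DM3. Wnt9a went otherwise there, with 2.04 and 2.62 FPKM in GM and 4.59 and 4.40 on DM3. Myog averaged 86.2 FPKM in Ctrl DM3 against 2.89 in Cas9M3 DM3. The sum of 5 mature fibre genes was 425 and 371 in Ctrl DM3 against 10.4 and 8.01 in Cas9M3 DM3. The paper reports the opposite direction for the knockdown once differentiation was induced. In its experiments, myosin heavy chain protein, fusion into myotubes and the expression of fusion genes were all raised. Why the sequenced libraries differ from those experiments was not tested. The part of the stage of differentiation in the levels of Wnt10a, Wnt9a and Axin2 was not tested. Endothelial markers summed to at most 0.222 FPKM and T cell markers to at most 0.00986 in these cells. Markers of fibro-adipogenic progenitors, which myoblast lines also express, summed to 258 and 320 in Ctrl DM3 and 932 to 1709 in the other 6 libraries. That sum is mostly Ly6a (mean 1534 in Ctrl GM, 244 in Ctrl DM3, 1172 in Cas9M3 GM and 1011 in Cas9M3 DM3), and other members of the list, such as Dcn (18.2 in Ctrl GM, 28.4 in Ctrl DM3) and Lum (1.63 and 2.37), were higher in Ctrl DM3 than in Ctrl GM.

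The inhibitors behaved otherwise. Sfrp2 was the most abundant of the 10 genes in C2C12 cells. It was 179 and 279 FPKM in Ctrl GM, 85.1 and 77.7 in Ctrl DM3, 180 and 224 in Cas9M3 GM, and 75.6 and 97.0 in Cas9M3 DM3. All 4 GM libraries lay above all 4 DM3 libraries, and Ctrl and Cas9M3 overlapped in both media. From GM to DM3 the log2 fold change was -1.46 ± 0.28 in Ctrl cells (adjusted p = 0.0794) and -1.23 ± 0.28 in Cas9M3 cells (adjusted p = 0.143). With the replicate number as a block, the Ctrl difference was called (adjusted p = 0.0398). With a library left out, the Ctrl difference was -1.78 to -1.14 and the Cas9M3 difference was -1.41 to -1.05. Gm26771, on the other strand of Sfrp2, was 3.72 and 11.4 FPKM in Ctrl GM and 0.809 and 0.777 in Ctrl DM3.

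Sfrp1 was 5.68 and 1.59 FPKM in Ctrl GM, 0.592 and 0.508 in Ctrl DM3, 51.6 and 7.62 in Cas9M3 GM, and 4.09 and 4.50 in Cas9M3 DM3. In each medium both Cas9M3 libraries lay above both Ctrl libraries, and in each cell line both GM libraries lay above both DM3 libraries. The mean was 8.14-fold higher with knockdown in GM (log2 fold change 2.68 ± 0.94, adjusted p = 0.510) and 7.81-fold higher on DM3 (2.76 ± 0.94, adjusted p = 0.196). With only the DM3 groups in the fit, the DM3 difference had an adjusted p of 0.00164. From GM to DM3 in Ctrl cells the log2 fold change was -2.27 ± 0.94 (adjusted p = 0.274).

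Rspo3 was listed at 0 in both Ctrl DM3 libraries and in Ctrl GM replicate 2, and it had 1 read in Ctrl GM replicate 1. In Cas9M3 cells it was 0.215 and 0.106 FPKM in GM (21 and 6 reads) and 0.650 and 0.837 on DM3 (56 and 38 reads). Every Cas9M3 library thus lay above every Ctrl library. Only the Cas9M3 DM3 libraries brought it into the table of genes tested, so no test of it is given. Wnt5a, which was not tested, had 0, 1, 0 and 0 reads in the Ctrl libraries and 9, 18, 23 and 5 reads in the Cas9M3 libraries (0.0365, 0.125, 0.105 and 0.0435 FPKM). Wnt11 had 1 to 6 reads in each C2C12 library.

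Wnt4 was 7.98 and 18.6 FPKM in Ctrl GM, 5.56 and 5.01 in Ctrl DM3, 6.50 and 25.7 in Cas9M3 GM, and 7.69 and 7.87 in Cas9M3 DM3. In GM, replicate 2 was the high one in both cell lines, opposite to Axin2 and Sfrp1. On DM3 the Cas9M3 libraries lay above the Ctrl libraries (log2 fold change 0.55 ± 0.67, adjusted p = 0.771), with an adjusted p of 0.0348 when only the DM3 groups were fitted. Lef1 was 0.684 and 1.00 FPKM in Ctrl GM, 0.602 and 0.294 in Ctrl DM3, 0.490 and 0.663 in Cas9M3 GM, and 0.314 and 0.279 in Cas9M3 DM3. It was not called in any comparison. In both cell lines, its GM libraries lay above its DM3 libraries.

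**Figure D4:**
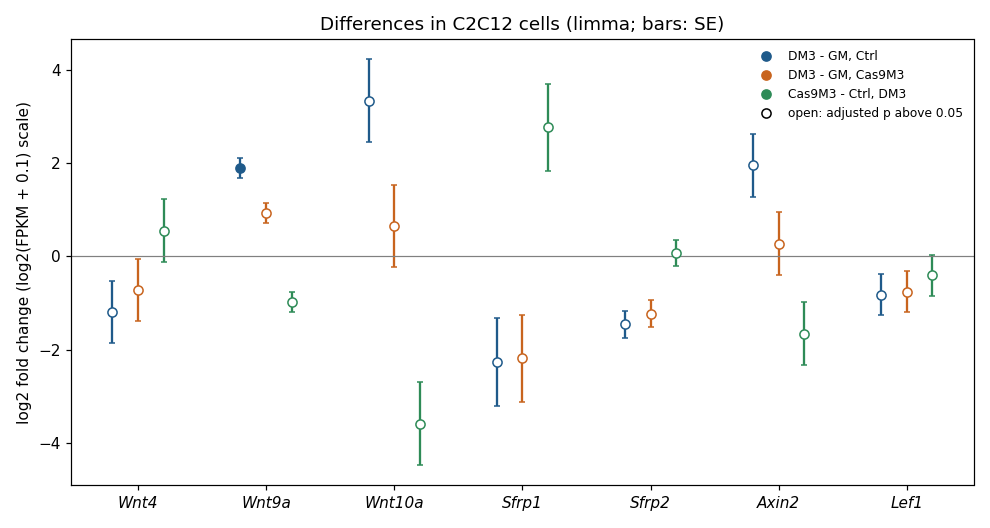
Log2 fold changes on the log2(FPKM + 0.1) scale (vertical axis) of 7 genes tested in C2C12 cells (without Rspo3), with SE bars, for differentiation in Ctrl cells, differentiation in Cas9M3 cells, and Cas9M3 against Ctrl on DM3. The 1 filled point, Wnt9a with differentiation in Ctrl cells (1.89), has an adjusted p of at most 0.05. Wnt10a lies at 3.33 with differentiation in Ctrl cells and at -3.59 for the knockdown on DM3.

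Across all 13824 genes tested in C2C12 cells, few passed, and the 7 genes tested other than Rspo3 were counted. With differentiation in Ctrl cells 1 of 7 was called against 1.14% of all genes (0 DEGs against 0.694%), and 7 of 7 did not overlap between the groups against 47.2%. With the replicate number as a block, 2 of 7 were called, and the count over all genes rose from 158 to 411. In Cas9M3 cells 0 of 7 were called by limma against 0.0289% by either rule, and 4 of 7 did not overlap against 48.0%. An unadjusted p under 0.05 was found there for 2 of 7, beside 1748 of all 13824 genes. Between Cas9M3 and Ctrl on DM3, 0 of 7 were called by limma against 1.98% (0 DEGs against 1.19%), and 5 of 7 did not overlap against 63.5%. An unadjusted p under 0.05 was found for 4 of 7, beside 2429 of all 13824 genes. With only the DM3 groups fitted, 5 of 7 were called (Wnt4, Wnt9a, Wnt10a, Sfrp1, Axin2), where 21.6% of all genes were. The block moved the count over all genes on DM3 from 274 to 505 and called 0 of the 7. In GM, 0 of 7 and 0% of all genes were called by limma, and 2 of 7 did not overlap against 29.4%. An unadjusted p under 0.05 was found there for 1 of 7, beside 1244 of all 13824 genes. Within 2 against 2 libraries an exact permutation test cannot go below p = 0.333, so none was used.

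Whether the knockdown difference changed between GM and DM3 was tested in the same fit, and 0 of 7 and 0% of all genes passed by limma. An unadjusted p under 0.05 was found for 1 of 7, Wnt9a, beside 1198 of all 13824 genes. The difference between the DM3 and GM effects was -0.96 ± 0.30 for Wnt9a (adjusted p = 0.436), -2.69 ± 1.26 for Wnt10a (0.608) and -1.69 ± 0.95 for Axin2 (0.671). For Sfrp1 it was 0.08 ± 1.32 (adjusted p = 0.991). Of 59 genes of the pathway lists tested, 0 were called by limma for the knockdown in GM or on DM3. An unadjusted p under 0.05 was found for 10 in GM and 18 on DM3, beside 1244 and 2429 of all 13824 genes. The 59 include Rspo3, which passed the filter through Cas9M3 DM3 only and is among the 18. With differentiation in Ctrl cells, 3 of 59 list genes (5.08%) were called beside 1.14% of all genes. They were 1 of 6 ligands tested (Wnt9a, already counted above) and 2 of 9 common targets. Nkd2, an inhibitor that Wnt signals switch on, rose from 8.40 and 11.9 to 36.0 and 35.1 FPKM (log2 fold change 1.82 ± 0.27, adjusted p = 0.0438). Myc fell from 29.8 and 31.1 to 14.9 and 14.0 FPKM (-1.07 ± 0.15, adjusted p = 0.0394), a call lost with scaling to total reads (-0.80, adjusted p = 0.251). Fitted with only the Ctrl groups, 0% of all genes were called, so the calls of Wnt9a, Nkd2 and Myc were all lost. The muscle and C2C12 tables were scaled apart, so levels were not tested between them.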

How the data were processed

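RNA-seq libraries of CTX-injured tibialis anterior (10 libraries) and of Ctrl and Cas9M3 C2C12 cells (8 libraries) were analysed. Total RNA was extracted with TRIzol and libraries were made with a SMARTER mRNA kit. The deposited values are FPKM, which the authors computed with the DESeq2 fpkm function, separately for each table, from featureCounts gene counts of HISAT2 alignments (build GRCm38). Depth was read from steps in low values, of which 97.13 to 97.94% (muscle) and 98.86 to 99.06% (C2C12) were whole reads within 0.05 read. Steps and reads served as a description and cover counting error only.

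The filter kept genes reaching 0.5 FPKM in 2 or more libraries. Values of log2(FPKM + 0.1) were fitted with limma 3.58.1 (lmFit, eBayes with trend) under R 4.3.3. Each table had a single fit of all its groups, and p-values were adjusted by Benjamini-Hochberg over every gene tested. A call required an adjusted p no higher than 0.05. Samples were grouped by their labels. Sequences came from RefSeq and gene positions from GENCODE M21. Python 3.11.15, pandas 2.3.3, numpy 2.4.6 and matplotlib 3.10.9 were used.

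The genes described and the pathway and marker lists were chosen with earlier results of these data known, so they were given no test of their own. All 10 genes are described. List genes are named only where called, at most the 4 with the largest change per list and comparison where the higher group averages 1 FPKM or more. The 2 genes most alike each muscle gene were taken by Pearson r among genes that reach 1 FPKM in at least 2 libraries, of which 1 for Sfrp2 is not reported here. On simulated data with 200 genes shifted by 4 on the log2 scale, the fit recovered 183 for day 3 against day 0 (15548 genes, 10 unchanged genes called) and 162 for Cas9M3 against Ctrl on DM3 (13220 genes, 14 unchanged genes called). A shift of 4 is larger than most differences described here, and recovery of smaller ones was not tested.

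Same-numbered C2C12 libraries deviated together from their group means in all 6 pairs of groups (correlations 0.278 to 0.680), which pairs them by that measure, although the labels give no reason for it. The fit had no block, and the blocked value is printed where it changes a call. Alternatives were other pseudocounts, filters and scalings (that to total reads on genes was added after seeing the data), fits of only the groups compared, a replicate block, a term for Xist-expressing muscle libraries, the DEG threshold, and leaving out each library.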

Additional observations from a re-analysis of the deposited data

How the results depend on the processing

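Of 83 pairs of a gene tested and a comparison, 42 were not called under any setting and had an unadjusted p of at least 0.05. For the other 41, 390 of 394 values from other settings and 380 of 382 values with a library left out kept their direction. The exceptions were the differences of day 3 from day 0 with scaling to total reads in Wnt9a (0.053) and Axin2 (0.13), and that of day 10 from day 3 in Wnt5a (-0.04) with quantile normalization (0.27), with a term for Xist (0.11) and without day 3 replicate 1 or day 10 replicate 2 (-0.22 to 0.14 over the libraries left out). Over the settings 11 calls were lost and 20 gained, and with a library left out 25 were lost and 15 gained.

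The count of genes called moved as follows. For day 3 against day 0 (5), it was 3 with scaling to total reads or the DEG threshold and 3 to 5 with a library left out. For day 3 against day 1 (3), it was 2 to 3 with a library left out. For day 5 against day 3 (1), it was 3 with a pseudocount of 1, 2 with a filter at 1 FPKM, quantile normalization, scaling to total reads, only the groups compared or a replicate block, 0 with a term for Xist or the DEG threshold, and 0 to 2 with a library left out. For day 10 against day 3 (5), it was 3 with scaling to total reads, 2 with the DEG threshold and 2 to 5 with a library left out. For day 1 against day 0 (0), it was 0 to 1 with a library left out. For Cas9M3 against Ctrl on DM3 (0), it was 1 with a pseudocount of 1, 5 with only the groups compared and 0 to 1 with a library left out. For DM3 against GM in Ctrl (1), it was 0 with only the groups compared or the DEG threshold, 2 with a replicate block and 0 to 3 with a library left out. For DM3 against GM in Cas9M3 (0), it was 0 to 1 with a library left out. Shares over all genes moved as well, also with a library left out, and the counts are to be read against them. Scaling to total reads took day 3 against day 0 from 48.8% to 61.1% and day 10 against day 3 from 37.9% to 54.3%. A pseudocount of 1 took day 5 against day 3 from 12.7% to 15.6%, and Cas9M3 against Ctrl on DM3 from 1.98% to 3.28%. Fitting only the groups compared took the latter to 21.6%, and DM3 against GM in Ctrl from 1.14% to 0%. The cause of these changes was not tested.

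In muscle, same-numbered libraries shared only a number (correlations -0.0187 to 0.211, 2 of 10 above 0.1). The replicate block there also called Axin2 for day 3 against day 0 (adjusted p = 0.0185), day 5 against day 3 (0.0204) and day 10 against day 3 (0.0169). In C2C12 cells the block changed no call other than that of Sfrp2 in Ctrl cells. Genes under 10 reads (Lef1 in muscle, Wnt5a and Wnt11 in Ctrl C2C12 cells) are too shallow to order groups.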
